A study of Mus musculus with 22 samples.

Results

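The homeobox and paired-box transcription factor genes outside the Hox clusters were examined in mouse mesenchymal cells that carry different forms of the DNA methyltransferase DNMT3A. The members were all rows of the count table whose symbol is a family stem followed by a number, for the families Alx, Barx, Dlx, Emx, Irx, Isl, Lhx, Meis, Meox, Msx, Nkx, Otx, Pax, Pbx, Pitx, Prrx and Shox and the family of Six2. This gave 78 genes of 30170. Of these, 35 were expressed, meaning that their mean level over the 2 libraries of a condition reached a CPM (counts scaled to library size, with TMM normalization) of 1 in at least 1 of 11 conditions. That is 44.9% of the members, beside 44% of all genes in the table.

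C3H 10T1/2 is an established mouse line of multipotent mesenchymal cells, and the RNA came from cells of this line labelled DNMT3A WT, W330R or W330R-R181E. The W330R substitution lies in the PWWP domain, which reads methylated histone H3, and R181E lies in the N-terminal part of the protein. WT and W330R cells were taken undifferentiated, without treatment, and all 3 genotypes were taken on days 2, 4 and 6 of adipocyte differentiation. Differentiation was started with a mixture of isobutylmethylxanthine, dexamethasone, insulin and troglitazone, which was replaced after day 2 by medium with insulin. W330R-R181E cells have no undifferentiated libraries here, so the 11 conditions hold 8 WT, 8 W330R and 6 W330R-R181E libraries. The sources used here do not say how the DNMT3A forms were introduced, whether endogenous DNMT3A remained, whether each genotype is 1 line, or whether the 2 libraries of a condition are separate cultures. The p-values below therefore measure the spread between libraries, which may be technical.

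Libraries held between 8859501 and 47453908 counts. The 6 columns of the double mutant name the second substitution R181A, whereas their labels give R181E, and the label is used here. The 4 undifferentiated columns follow another naming pattern than the 18 others, so that differentiation and a library batch cannot be told apart in any comparison with undifferentiated cells. The 2 libraries of an undifferentiated condition were also unusually alike, with a mean chi-square per gene of 3.41 in WT and 3.1 in W330R against 30 to 107 in the other pairs. They still differed by more than counting noise and were kept as 2 libraries, and calls that end with each pair summed into 1 library are given as such. Dnmt3a read 345 to 347 CPM in undifferentiated WT cells and 316 to 326 CPM in undifferentiated W330R cells, and 105 to 322 CPM in WT, 87.4 to 142 CPM in W330R and 68.5 to 148 CPM in W330R-R181E on days 2 to 6. It was lower in the double mutant relative to WT in 6 of 6 same-numbered pairs, with a log2 fold change of −0.68 ± 0.23 (adjusted p = 0.075), and −0.70 ± 0.13 (adjusted p = 0.005) with the replicate number as a block. The other genotype differences of Dnmt3a were −0.36 ± 0.20 in W330R against WT and −0.24 ± 0.23 in the double mutant against W330R and were not called. Counts per gene do not separate the forms, so they do not check the labels.

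Homeodomain proteins bind short AT-rich DNA elements and set positional and lineage identity in embryos and in mesenchyme. Meis and Pbx proteins belong to the TALE class and act as DNA-binding partners of Hox and other homeodomain proteins, and Six2 and its relatives work with Eya coactivators. Pax proteins carry a paired domain, in several members together with a homeodomain. Promoters of many such developmental genes lie in CpG-rich DNA that Polycomb complexes occupy in cells where the genes are silent, and DNMT3A with an altered PWWP domain is known to methylate such regions.

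Because the enzyme under study methylates CpG sites, the CpG content of the members' promoters is shown first, for the paralogue pairs that carry the comparisons between genotypes. The 250 bases upstream of the RefSeq start were read on build GRCm38.p6, 5′ to 3′ on the gene's strand, with every CpG in capitals.

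Prrx1, chr1:163313651-163313900, minus strand: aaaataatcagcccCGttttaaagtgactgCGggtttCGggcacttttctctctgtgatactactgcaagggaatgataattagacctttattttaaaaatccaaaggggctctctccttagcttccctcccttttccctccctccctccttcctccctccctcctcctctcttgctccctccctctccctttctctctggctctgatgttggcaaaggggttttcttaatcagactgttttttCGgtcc

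Prrx2, chr2:30845117-30845366, plus strand: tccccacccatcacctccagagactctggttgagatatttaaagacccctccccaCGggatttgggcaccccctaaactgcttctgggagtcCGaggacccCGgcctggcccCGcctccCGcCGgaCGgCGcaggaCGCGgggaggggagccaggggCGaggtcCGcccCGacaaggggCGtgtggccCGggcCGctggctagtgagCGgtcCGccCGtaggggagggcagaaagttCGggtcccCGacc

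Meis2, chr2:116064620-116064869, minus strand: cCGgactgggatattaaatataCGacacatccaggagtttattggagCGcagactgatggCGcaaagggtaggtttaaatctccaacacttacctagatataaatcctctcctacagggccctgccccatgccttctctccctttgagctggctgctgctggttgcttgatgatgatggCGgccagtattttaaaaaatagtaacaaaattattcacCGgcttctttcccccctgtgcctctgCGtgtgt

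Meis3, chr7:16175145-16175394, plus strand: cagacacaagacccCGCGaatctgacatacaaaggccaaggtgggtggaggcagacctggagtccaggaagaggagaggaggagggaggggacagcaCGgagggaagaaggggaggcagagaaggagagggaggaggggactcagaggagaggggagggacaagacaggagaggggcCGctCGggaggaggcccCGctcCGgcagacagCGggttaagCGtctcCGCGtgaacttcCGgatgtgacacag

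The 4 windows differ widely, with 4 CpG sites for Prrx1, 21 for Prrx2, 7 for Meis2 and 12 for Meis3. Only the first listed window of a gene was used, so any further starts are not covered. A window was given for 54 of the 78 members and for 24 of the 35 expressed ones. The median was 15 CpG sites in the members and 10 in the 15999 windows of all genes in the table. Expressed members had a median of 14.5 sites and members below 1 CPM a median of 15.5. The homeodomain core TAATTA, searched on both strands, was found in 5.56% of the members' windows and in 4.33% of all windows. TGACAG, the Meis core, was found in 16.7% and 15.5%. These matches describe the letters only, and methylation was not measured.

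Expression was uneven between the families. All 4 Pbx, all 3 Meis and both Prrx genes were expressed, as was Shox2, the single Shox gene. Families expressed in large part were Dlx with 4 of 6 genes, Irx with 4 of 6, Six2 and its relatives with 4 of 6 and Msx with 2 of 3. Lhx had 3 of 8 expressed genes and Pax 3 of 9, and Barx, Emx, Isl and Otx had 1 of 2. None of the 14 Nkx, 3 Alx and 2 Meox genes reached 1 CPM, among them Nkx2-1 of lung and thyroid and Nkx2-5 of heart. Pax7 of muscle stem cells was also below it. Of the 43 members below 1 CPM, 6 had no count in any library, among them Alx1, Barx1, Emx1, Lhx8 and Pax4. Others came within 0.5 to 1 CPM in their highest condition, such as Pax6 with 0.975 CPM in undifferentiated WT cells, Six6 with 0.661 on day 2 in WT, Six3 with 0.623 on day 4 in W330R and Meox1 with 0.585 in undifferentiated W330R cells. A library with no count of a gene allows up to 0.0583 to 0.347 CPM, taking 3 counts as the limit and counting error only.

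Of the expressed members 27 were at 1 CPM or more in all 11 conditions. Compared per kilobase of annotated exon, the highest mean level was that of Prrx1, a regulator of limb and craniofacial mesenchyme, with 43.3 CPM per kilobase. Its paralogue Prrx2 had 27.4, the TALE gene Pbx2 had 15.9, the Iroquois gene Irx2 had 14.7, and Meis2 and Six2 had 12.4 and 12.1. The condition means of Prrx1 ran from 23.8 to 85.0 CPM per kilobase and those of Prrx2 from 9.94 to 51.2, so their ranges overlapped. The lowest of the expressed members was Pax8 with 0.138 CPM per kilobase.

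**Figure D1:**
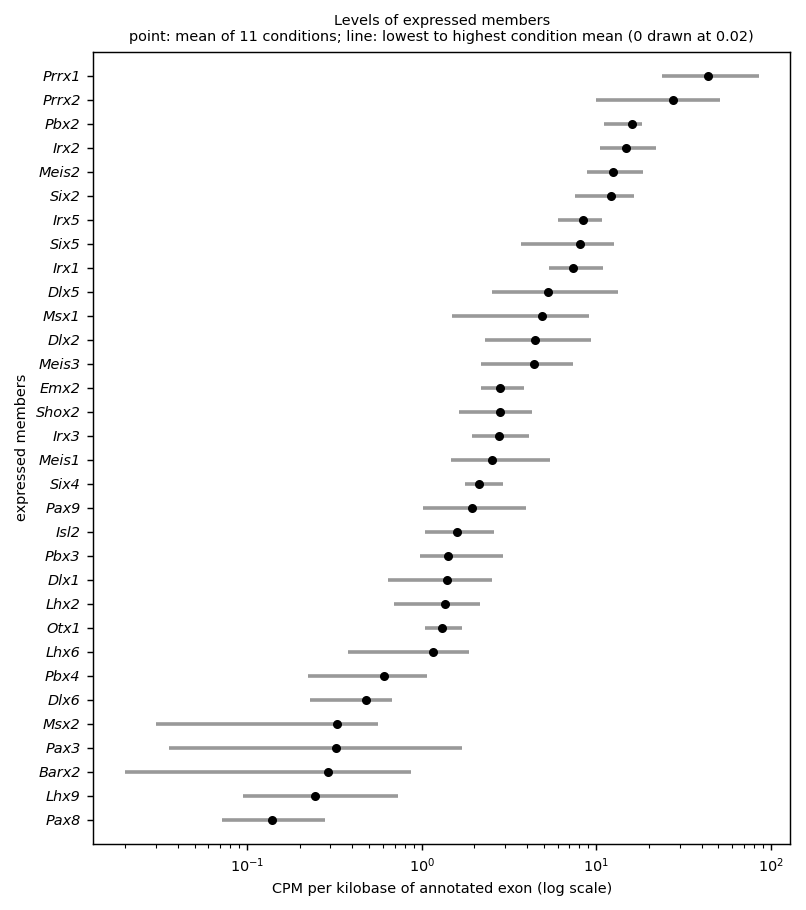
Mean level of expressed members in CPM per kilobase of annotated exon on a log axis. Points are means of the 11 conditions and lines run from the lowest to the highest condition mean, with 0 drawn at the left end. Prrx1 stands highest with 43.3 and Pax8 lowest with 0.138.

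The first comparison asked which members differ between W330R and WT cells, averaged over the 4 stages. The Prrx and Meis genes, Six2 and Irx2 were higher in W330R cells, and Irx3 was lower. Of the 41 members that passed the filter on low counts (the 35 expressed and 6 below 1 CPM), 12 were called higher at an adjusted p under 0.05 (edgeR quasi-likelihood test over 14520 genes) and 1 lower, that is 29.3% and 2.44% of them. Over all genes tested 11.2% were called higher and 11.8% lower. The median log2 fold change of the members was 0.27, beside 0.01 for all genes. In bulk RNA, fewer cells that express a gene and less of its RNA per cell cannot be told apart.

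Prrx1 read 934 and 943 CPM in undifferentiated WT cells and 935 and 946 CPM in undifferentiated W330R cells. On days 2 to 6 it lay at 239 to 360 CPM in WT with a median of 290, and at 430 to 578 CPM in W330R with a median of 523. The undifferentiated genotypes were alike, whereas every differentiating W330R library lay above every differentiating WT library. Averaged over the stages the log2 fold change was 0.62 ± 0.09 (SE; adjusted p = 0.00038). W330R was higher in 8 of 8 same-numbered pairs, but the undifferentiated pairs were nearly equal. Without the undifferentiated libraries the log2 fold change was 0.83.

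Prrx2, the paralogue that acts with Prrx1 in the skeleton, lay in W330R on opposite sides of WT before and during differentiation. Undifferentiated WT cells read 90.3 and 87.0 CPM and undifferentiated W330R cells 42.4 and 41.5 CPM. On days 2 to 6 WT lay at 17.8 to 58.1 CPM with a median of 30.9, and W330R at 81.8 to 117 CPM with a median of 86.3. W330R was thus below WT before differentiation and above every WT library during it. The log2 difference was −1.08 ± 0.32 in undifferentiated cells, which was not called (adjusted p = 0.13), 0.79 ± 0.16 over the 4 stages (adjusted p = 0.0034) and 1.42 over days 2 to 6 alone.

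The Meis genes encode TALE partners of Hox and Pbx proteins. Meis2 read 164 and 170 CPM in undifferentiated WT cells and 217 and 208 CPM in undifferentiated W330R cells. Its levels on days 2 to 6 were 101 to 146 CPM in WT (median 114) and 145 to 238 CPM in W330R (median 186). The ranges touched only at the highest WT and the lowest W330R library, and the log2 fold change was 0.60 ± 0.07 (adjusted p = 0.00012).

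Meis3 read 14.5 and 15.4 CPM in undifferentiated WT cells and 13.1 and 15.3 CPM in undifferentiated W330R cells. Days 2 to 6 gave 7.82 to 16.8 CPM in WT (median 13.7) and 12.7 to 24.8 CPM in W330R (median 18.1). The ranges overlapped across days, and W330R was above WT on each day. Its log2 fold change was 0.42 ± 0.09 (adjusted p = 0.0058).

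Meis1 read 56.0 and 58.1 CPM in undifferentiated WT cells and 52.3 and 50.4 CPM in undifferentiated W330R cells. Later it lay, over days 2 to 6, at 12.3 to 21.4 CPM in WT (median 15.5) and at 21.6 to 29.3 CPM in W330R (median 25.9), without overlap. Its log2 fold change reached 0.47 ± 0.12 (adjusted p = 0.013). This call was lost with the undifferentiated pairs summed (adjusted p = 0.058), and 17% of the 50-base sequences of Meis1 are shared with other annotated genes, mainly Gm37818 and Gm16140.

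Of the Pbx genes, which encode TALE proteins that dimerize with Hox and Meis proteins, Pbx2 read 41.1 and 39.8 CPM in undifferentiated WT cells and 54.3 and 49.4 CPM in undifferentiated W330R cells. On days 2 to 6 it lay at 59.8 to 73.7 CPM in WT and at 55.0 to 66.0 CPM in W330R, with overlap. Its log2 fold change over the stages was −0.01 ± 0.06 and was not called.

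Six2, which keeps renal and craniofacial progenitors, had 34.0 and 35.3 CPM in undifferentiated WT cells and 33.9 and 33.8 CPM in undifferentiated W330R cells. Its ranges on days 2 to 6 were 12.5 to 30.1 CPM in WT (median 18.9) and 24.0 to 40.2 CPM in W330R (median 28.3), with overlap. Its log2 fold change of 0.44 ± 0.14 (adjusted p = 0.035) was lost in 12 of 16 fits that left out 1 library, with an adjusted p of up to 0.1 without the second WT library of day 4, and with the undifferentiated pairs summed (0.11).

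The Iroquois genes Irx2 and Irx3 moved in opposite directions. In detail, Irx2 read 45.4 and 43.7 CPM in undifferentiated WT cells and 41.0 and 42.4 CPM in undifferentiated W330R cells. On days 2 to 6 it lay at 34.0 to 48.8 CPM in WT (median 40.4) and at 54.4 to 71.9 CPM in W330R (median 60.5), without overlap, and the log2 fold change over the stages was 0.44 ± 0.07 (adjusted p = 0.00098). Irx3, a gene tied to fat mass through the neighbouring Fto locus, read 9.95 and 9.75 CPM in undifferentiated WT cells and 5.96 and 5.78 CPM in undifferentiated W330R cells. Days 2 to 6 gave 5.06 to 11.9 CPM in WT (median 10.7) and 4.64 to 6.43 CPM in W330R (median 5.72), where only the first WT library of day 2 fell into the W330R range. The log2 fold change of Irx3 was −0.76 ± 0.15 (adjusted p = 0.0031). Irx3 shares 124 exon bases with the antisense gene Irx3os, and the strand setting of the counting is not given in the sources used here. Irx1 and Irx5 had log2 fold changes of 0.16 and 0.27 and were not called.

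Shox2, a limb and heart factor, had a log2 fold change of 0.57 ± 0.18 (adjusted p = 0.036), lost in 10 of 16 fits that left out 1 library, up to an adjusted p of 0.1 without the second WT library of day 4, and with the undifferentiated pairs summed (0.12). It shares 153 exon bases with Rsrc1 on the opposite strand. Six3, the 12th gene called higher, stayed below 1 CPM in every library. It read 0.616 and 0.623 CPM in undifferentiated WT cells and 0.245 and 0.116 CPM in undifferentiated W330R cells, and 0 to 0.148 CPM in WT and 0.228 to 0.763 CPM in W330R on days 2 to 6. W330R was thus below WT before differentiation and above every WT library of the later days. Its call was lost with the undifferentiated pairs summed (adjusted p = 0.1) and in 13 of these 16 fits, among them each one without an undifferentiated library, with an adjusted p of up to 0.19 without the first undifferentiated W330R library. The 23 other expressed members were not called. Apart from Barx2, which had no count in undifferentiated cells, their log2 fold changes ran from −0.27 for Pax3 to 0.54 for Lhx6, and Pax9 had 0.53 ± 0.20 (adjusted p = 0.076), with W330R above WT in 6 of 6 same-numbered pairs of days 2 to 6.

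**Figure D2:**
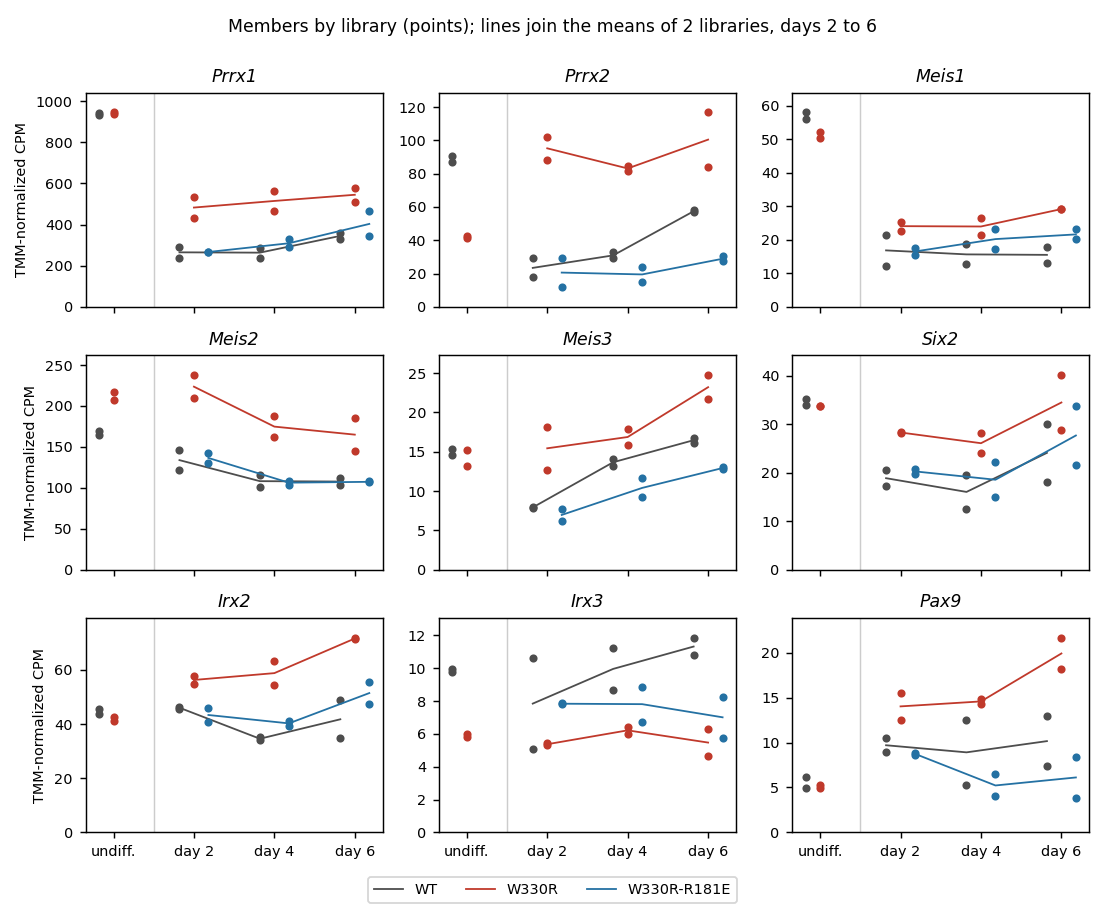
TMM-normalized CPM of 9 members in each library by stage, with WT in grey, W330R in red and W330R-R181E in blue. Points are libraries and lines join the means of days 2, 4 and 6. Prrx2 lies at 41.5 and 42.4 CPM in undifferentiated W330R cells, below WT, and at 81.8 CPM or more in W330R on days 2 to 6, above both other genotypes.

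The difference between W330R and WT was also tested at each stage alone. In undifferentiated cells 1 member was called higher, beside 0.792% of all genes called higher and 0.957% lower. Leaving out any of the 4 undifferentiated libraries or summing the pairs left no call by edgeR. At an unadjusted p under 0.05, 7 members differed in undifferentiated cells.

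On day 2, 4 members were called higher and none lower, against 1.88% and 1.18% of all genes. Prrx2 had the largest log2 fold change, 2.02 ± 0.33, followed by Meis3 with 0.97 ± 0.19, Prrx1 with 0.86 ± 0.17 and Meis2 with 0.74 ± 0.14. Prrx2 was called whichever library was left out. Prrx1, Meis2 and Meis3 were lost without the second WT library (adjusted p of 0.14 to 0.18), Prrx1 and Meis2 without the first W330R library (0.08 to 0.11), and Meis3 without the first WT (0.056) or second W330R library (0.15).

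On day 4, 5 were called higher and none lower, against 2.73% and 3.4% of all genes. Among them Prrx2 had a log2 fold change of 1.43 ± 0.32, Prrx1 0.97 ± 0.17, Irx2 0.77 ± 0.14 and Meis2 0.69 ± 0.14. All 5 calls were lost without the second WT library (adjusted p of 0.12 to 0.24). Without the first W330R library all but Irx2 were lost (0.07 to 0.11), without the second W330R library 3 including Irx2 and Prrx2 (0.054 to 0.088), and without the first WT library Prrx2 (0.05022).

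On day 6, 5 were called higher and 1 lower, against 2.31% and 5.23% of all genes. Among them Meis1 had a log2 fold change of 0.91 ± 0.24, Irx2 0.78 ± 0.14, Prrx1 0.66 ± 0.17, Meis2 0.62 ± 0.14 and Irx3 −1.04 ± 0.30. All 6 calls were lost without the second WT library (adjusted p of 0.1 to 0.43). Without the second W330R library all but Meis2 were lost (0.052 to 0.32), without the first W330R library Meis1, Prrx1, Meis2 and Irx3 (0.13 to 0.16), and without the first WT library Prrx1 and Irx3 (0.071 to 0.11). When the fit held only the 4 libraries of a day, edgeR called no member on any of the 3 days, beside 0, 0 and 57 of all genes. At an unadjusted p under 0.05 it then gave 8, 11 and 12 members on days 2, 4 and 6.

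Whether the difference between the genotypes itself changed from undifferentiated cells to day 6 was tested as an interaction. It rose for Prrx2 by 1.89 ± 0.45 and for Irx2 by 0.87 ± 0.20 on the log2 scale (adjusted p = 0.034 and 0.029). In all 2 members were called with a rise and 1 with a fall, beside 1.69% of all genes called with a rise and 2.2% with a fall. No call held with the undifferentiated pairs summed (adjusted p of 0.27 for Irx2 and 0.29 for Prrx2). At an unadjusted p under 0.05 edgeR then gave 7 members. Leaving out any 1 of the 8 libraries ended the call of Prrx2, and any but the first WT library of day 6 that of Irx2.

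The second comparison asked how W330R-R181E cells differ from W330R cells on days 2 to 6. Prrx1, Prrx2, Meis2, Meis3, Irx2 and Pax9 had lower levels in W330R-R181E, each in 6 of 6 same-numbered pairs. In all 8 members were called lower and 1 higher, that is 19.5% and 2.44% of those tested, beside 9.36% of all genes called lower and 7.87% higher. The median log2 fold change was −0.10 for the members and 0.01 for all genes. The W330R libraries of this comparison are also those of the comparison with WT, so the calls are not independent of each other. With the replicate number as a block, which the correlations between same-numbered libraries allow here, 14 members were called, 13 of them lower, with Meis1, Six2, Shox2, Six5 and Irx1 added, and 21.9% of all genes were called in either direction.

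Prrx2 fell furthest of the expressed members. Its levels in W330R-R181E were 12.1 and 29.1 CPM on day 2, 14.95 and 24.0 CPM on day 4 and 30.4 and 27.4 CPM on day 6. In W330R they were 88.2 and 102 CPM, 84.4 and 81.8 CPM, and 117 and 84.0 CPM on the same days. The highest double mutant library was below the lowest W330R library on every day, and the log2 fold change was −2.02 ± 0.19 (adjusted p = 2.1e-05).

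Prrx1 read 267 and 267 CPM on day 2, 290 and 329 CPM on day 4 and 342 and 464 CPM on day 6 in the double mutant. W330R read 535 and 430 CPM, 565 and 465 CPM, and 578 and 512 CPM. The genotypes were apart on each day, although the second double mutant library of day 6 exceeded the second W330R library of day 2. This gave a log2 fold change of −0.68 ± 0.10 (adjusted p = 0.00046).

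Meis2 read 131 and 142 CPM on day 2, 109 and 104 CPM on day 4 and 107 and 108 CPM on day 6 in the double mutant, below all 6 W330R libraries. The log2 fold change was −0.68 ± 0.08 (adjusted p = 8.3e-05). Meis3 read 6.24 and 7.68 CPM, 9.18 and 11.6 CPM, and 12.7 and 13.1 CPM, rising over the days but lower than W330R on each of them. The log2 fold change was −0.90 ± 0.11 (adjusted p = 1e-04).

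Irx2, with 39.3 to 55.5 CPM (median 43.5), overlapped the W330R range by its first library of day 6 and had a log2 fold change of −0.47 ± 0.08 (adjusted p = 0.0015).

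Pax9, a paired-box factor of pharyngeal and skeletal development, was called lower in the double mutant. It read 8.62 and 8.86 CPM on day 2, 6.44 and 4.001 CPM on day 4 and 8.44 and 3.79 CPM on day 6 in the double mutant. W330R lay between 12.6 and 21.7 CPM with a median of 15.2, above all of these, and the log2 fold change was −1.28 ± 0.23 (adjusted p = 0.0021). Pax9 shares 189 exon bases with Slc25a21 on the opposite strand. Six3, at 0 to 0.217 CPM in the double mutant with counts of 0 to 6, was also called lower (adjusted p = 0.0026).

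Barx2, a homeobox factor of muscle and cartilage, was the gene called higher (adjusted p = 0.0085). It was at 1.15 and 0.248 CPM on day 2, 1.398 and 1.17 CPM on day 4 and 1.46 and 1.95 CPM on day 6 in the double mutant, against 0 to 0.329 CPM in W330R, where counts were 0 to 14. WT lay at 0.0984 to 1.42 CPM and overlapped both. All 4 undifferentiated libraries had no count of Barx2. The 9 calls of this comparison were kept in each of the 17 alternative fits, 12 of which left out 1 library.

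Set against WT on days 2 to 6, W330R-R181E differed in 1 member, called higher, beside 4.46% of all genes called higher and 5.12% lower. No member was called by edgeR without the second WT library of day 4 or of day 6, where 7 and 6 had an unadjusted p under 0.05. With the replicate block 4 members were called, adding Msx2 with 0.84 ± 0.25 and Irx5 with 0.34 ± 0.10 as higher and Prrx2 with −0.61 ± 0.18 as lower, and 16.1% of all genes. At an unadjusted p under 0.05 without the block, 8 members differed.

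For the members called between W330R and WT, the double mutant's log2 fold changes against WT were 0.15 ± 0.10 for Prrx1, −0.61 ± 0.19 for Prrx2 and 0.00 ± 0.08 for Meis2. They were −0.31 ± 0.11 for Meis3, 0.15 ± 0.08 for Irx2 and −0.35 ± 0.17 for Irx3. None of these passed the test, with adjusted p from 0.055 for Prrx2 to 1 for Meis2, which does not show that the genotypes were equal.

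**Figure D3:**
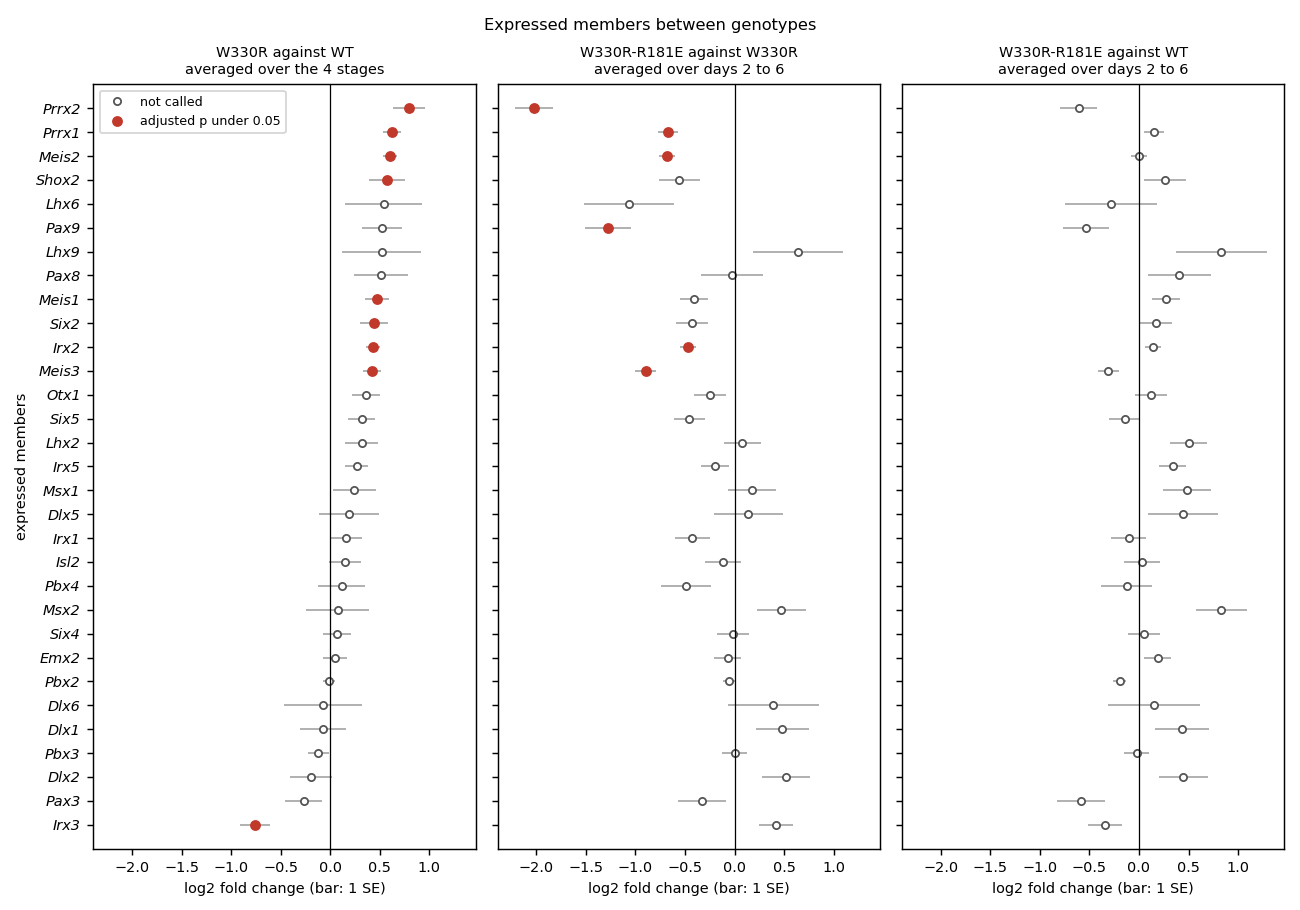
Log2 fold changes of the expressed members in 3 comparisons between genotypes, with bars of 1 SE and filled points for an adjusted p under 0.05. Barx2 is not drawn because it had no count in the undifferentiated libraries. Prrx2 stands at 0.79 in W330R against WT and at −2.02 in W330R-R181E against W330R.

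The summed level of all members was 2013 and 2042 CPM in undifferentiated WT cells and 2131 and 2140 CPM in undifferentiated W330R cells. On days 2, 4 and 6 the condition means were 1217, 1025 and 1221 CPM in WT, 1764, 1666 and 1817 CPM in W330R and 1239, 1136 and 1326 CPM in W330R-R181E. Every differentiating W330R library, at 1585 CPM or more, was above every library of the other genotypes on these days, which reached at most 1352 CPM.

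Some markers of the cell state also differed between the genotypes. Of 7 mesenchymal markers 3 were called higher in W330R than in WT, beside 11.2% of all genes, which were Pdgfra, Pdgfrb and Thy1. These 3 and Col1a2 were called lower in W330R-R181E relative to W330R, beside 9.36% of all genes. Col1a1, Ly6a and Vim were called in neither comparison. In undifferentiated cells Col1a1, Col1a2 and Ly6a read lower in W330R than in WT and the other mesenchymal markers higher, with no call. Of 8 adipocyte markers 5 were called lower in W330R than in WT over the 4 stages, beside 11.8% of all genes. Among them Cebpa had an average log2 fold change of −1.86 ± 0.16. This average includes undifferentiated cells, where Plin1 and Cidec had no count. On day 6 alone all 8 were called lower in W330R, beside 5.23% of all genes. In W330R-R181E relative to W330R 4 were called higher, beside 7.87% of all genes, which were Cebpa, Lpl, Adipoq and Cidec. Against WT, 4 were lower in the double mutant, beside 5.12% of all genes. The adipocyte sum on day 6 was 5270 and 10300 CPM in WT, 1620 and 1790 CPM in W330R and 1920 and 3290 CPM in W330R-R181E. The mesenchymal sum on day 6 was 7790 to 11900 CPM in WT, 11100 to 13800 CPM in W330R and 9290 to 13100 CPM in the double mutant. In undifferentiated cells the mesenchymal sum was lower in W330R, at 16800 to 17100 CPM against 19800 to 21000 CPM in WT. On days 2 and 4 the double mutant, at 2610 to 4650 and 7730 to 10500 CPM, overlapped W330R, at 3560 to 3990 and 8950 to 9540 CPM. The part of a different share of differentiated cells in the members' differences was not tested. Of 4 epithelial markers only Cdh1 was tested, and it was called higher in W330R than in WT with 1.44 ± 0.44. Summed markers of other types stayed low, at most 16.4 CPM for blood, 16.1 for endothelium, 3.67 for epithelium, 0.758 for neural cells and 0.108 for skeletal muscle.

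Proteins that bind the members were examined as a list of 28 genes, of which 20 were tested. Of these, 9 were called higher in W330R than in WT and none lower, beside 11.2% and 11.8% of all genes tested. Examples were Tle4, a corepressor, with a log2 fold change of 0.73 ± 0.11 and Ssbp3 with 0.54 ± 0.10. The TALE repressor Tgif1 had 0.31 ± 0.06, and Eya3, a coactivator that works with the Six2 family, had 0.34 ± 0.07. In W330R-R181E against W330R, 9 were lower and 1 higher, beside 9.36% and 7.87% of all genes. The TALE gene Pknox2, a relative of Meis, had −1.68 ± 0.27 at a low level. It read 0.149 to 0.758 CPM in the double mutant and 0.802 to 2.30 CPM in W330R on days 2 to 6. Tgif1 had −0.30 ± 0.07, Tgif2 −0.52 ± 0.12 and Ldb1, the cofactor of LIM homeodomain proteins, −0.40 ± 0.10. Ssbp2 was the one that was higher with 0.32 ± 0.09. Against WT the double mutant had 3 higher and 2 lower, beside 4.46% and 5.12% of all genes. The TALE homeobox genes Pknox1, Pknox2, Tgif1 and Tgif2 were placed in this list of partners. From other homeobox genes outside the Hox clusters and the families of the rule, a list of 89 was made, of which 36 were tested. In the same 3 comparisons 2 of them were higher and 4 lower, 1 higher and 2 lower, and 2 higher and 2 lower, beside the same shares of all genes. With the replicate block the second comparison gave 2 higher and 3 lower. The cut-like gene Cux1 was lower in all 3, with −0.19 ± 0.05, −0.39 ± 0.06 and −0.54 ± 0.06. Hopx, an atypical homeodomain protein without DNA binding, had −2.68 ± 0.55 in W330R against WT and 2.68 ± 0.60 in the double mutant against W330R. Its double mutant libraries differed widely, with 0.575 and 4.70 CPM on day 2, 1.09 and 6.52 on day 4 and 1.93 and 7.58 on day 6. W330R read 0.381 to 1.21 CPM on these days, and its first library of day 4 lay above that of the double mutant.

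Within each genotype, days 6 and 2 were compared to follow the members over differentiation. In WT 5 members were called higher on day 6 and 1 lower, against 14.8% and 11.8% of all genes. In W330R 3 were higher and 1 lower, against 13.6% and 11.3%, and in W330R-R181E 6 were higher and none lower, against 12.9% and 10.3%. Meis3 rose in all 3 genotypes, by 1.06 ± 0.19 in WT, 0.59 ± 0.18 in W330R and 0.89 ± 0.19 in the double mutant on the log2 scale. The LIM homeodomain gene Lhx2 rose by 1.03 ± 0.33, 1.31 ± 0.32 and 1.20 ± 0.33. Lhx2 read 3.78 and 3.20 CPM on day 2 and 8.85 and 5.40 CPM on day 6 in WT, 3.05 and 4.53 CPM and then 9.64 and 9.20 CPM in W330R, and 5.34 and 2.92 CPM and then 11.4 and 7.26 CPM in the double mutant. The 2 days did not overlap in any genotype.

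Prrx2 (1.29 ± 0.32) and Isl2 (1.23 ± 0.32) rose in WT, Meis2 fell in W330R (−0.44 ± 0.14), and Prrx1 (0.59 ± 0.17) and Six5 (1.02 ± 0.28) rose in the double mutant. Differences of these changes between the genotypes were not tested. Nkx3-2 in W330R and Six3 in the double mutant were called higher on counts of 0 or 1 on day 2 and of 1 to 32 on day 6. Of the 16 calls, Meis3 in WT and in the double mutant held whichever library was left out. Leaving out the first WT library of day 2 ended 4 calls in WT (adjusted p of 0.068 to 0.14), the second of day 2 3 (0.11 to 0.19), the first of day 6 3 (0.056 to 0.29) and the second of day 6 2 (0.06 to 0.12). Leaving out the first W330R library of day 2 ended all 4 calls in W330R (0.068 to 0.28), the first of day 6 2 (0.15 to 0.17), the second of day 6 2 (0.053 to 0.35) and the second of day 2 that of Nkx3-2 (0.18). In the double mutant each of the 4 libraries ended 3 or 4 calls, with adjusted p from 0.065 to 0.27.

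Day 6 was also compared with undifferentiated cells, where stage and library batch cannot be told apart. In WT 11 members were higher and 12 lower on day 6, against 25.5% and 23.8% of all genes, and in W330R 13 were higher and 6 lower, against 20.2% and 18.4%. The members' shares were 26.8% and 29.3% in WT and 31.7% and 14.6% in W330R. Pax3, a paired-box factor of neural crest and muscle progenitors, changed most among the expressed members with counts in every library. It read 10.5 and 10.6 CPM in undifferentiated WT cells and 9.72 and 7.40 CPM in undifferentiated W330R cells, and 0.198 to 0.567 CPM in every library of days 2 to 6. All 4 undifferentiated libraries were far above the other 18, and the log2 fold changes on day 6 were −4.61 ± 0.37 in WT and −4.08 ± 0.36 in W330R.

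Prrx1 fell by 1.44 ± 0.17 in WT and by 0.79 ± 0.17 in W330R, Meis1 fell by 1.88 ± 0.25 and by 0.82 ± 0.24, and Pbx3 fell by 1.49 ± 0.22 and by 1.00 ± 0.22. The distal-less gene Dlx2 fell by 1.65 ± 0.43 and by 1.18 ± 0.42. The Msx genes, which respond to BMP signals, were higher on day 6, Msx1 by 1.63 ± 0.45 and 1.71 ± 0.45. Msx2 had 1 to 5 counts in each undifferentiated library, 21 and 12 on day 6 in WT and 64 and 28 on day 6 in W330R. Six5 rose by 1.49 ± 0.28 and 1.45 ± 0.28 and Lhx2 by 1.22 ± 0.33 and 1.64 ± 0.34. Meis2 was called in WT with −0.63 ± 0.14 and had −0.36 ± 0.14 in W330R, just short of the threshold (adjusted p = 0.050024). Other members called in WT and not in W330R included Pbx2 with 0.71 ± 0.11 against 0.28 ± 0.11 and Isl2 with 1.31 ± 0.32 against 0.72 ± 0.32. Those called in W330R and not in WT included Irx2 (0.78 ± 0.14), Pax9 (1.95 ± 0.42), Pbx4 (1.99 ± 0.50), Prrx2 (1.26 ± 0.32) and Meis3 (0.71 ± 0.19). Of these, the difference between the genotypes was called for Irx2 and Prrx2 only, as given above.

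Of the 23 WT calls, 11 held in every alternative, among them Pax3, Meis1, Msx2, Prrx1, Meis2, Isl2, Pbx2, Pbx3 and Six5. In W330R 9 of 19 did, among them Lhx2, Pax9, Irx2, Pax3, Msx2, Prrx1, Pbx3 and Six5. With the undifferentiated pairs summed fewer members were called in both genotypes. Among the calls lost then were Lhx2 (adjusted p = 0.056) and Msx1 (0.057) in WT and Msx1 (0.061), Meis3 (0.068), Prrx2 (0.07), Meis1 (0.071) and Dlx2 (0.13) in W330R. Leaving out the second undifferentiated WT library left 13 calls and leaving out the first undifferentiated W330R library left 10, and Msx1, Meis1 in W330R, Dlx2, Lhx2 in WT, and Pbx4, Prrx2 and Meis3 in W330R were each lost without at least 1 library (adjusted p of 0.05014 to 0.19).

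**Figure D4:**
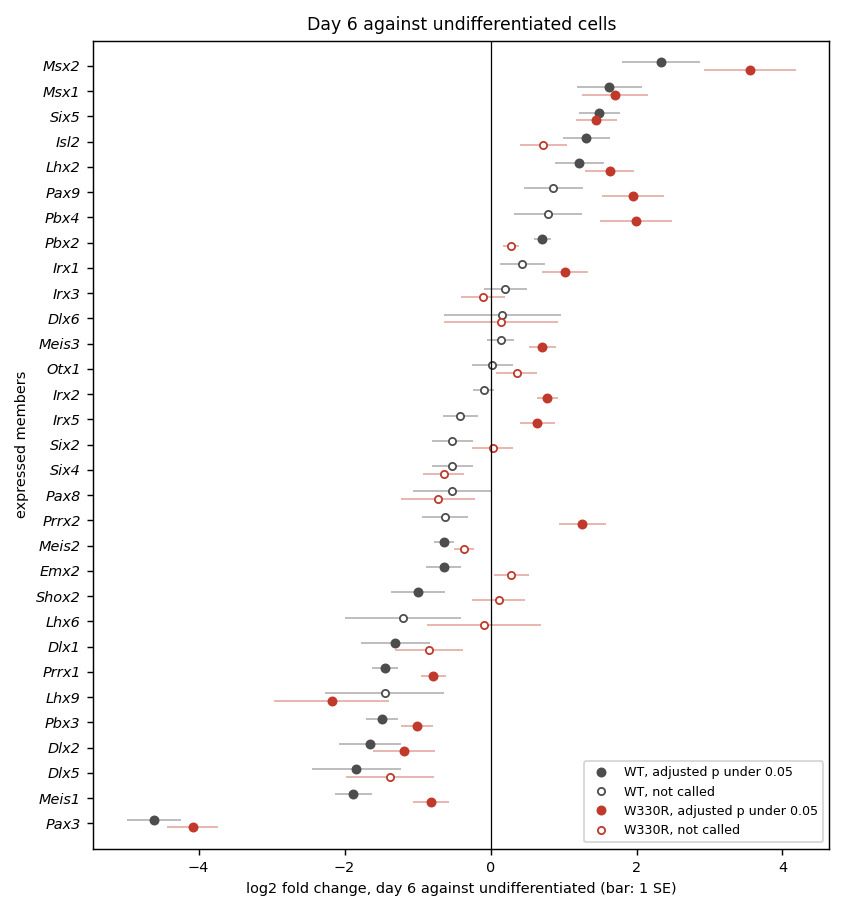
Log2 fold change of day 6 against undifferentiated cells for the expressed members other than Barx2, with WT in grey and W330R in red, bars of 1 SE and filled points for an adjusted p under 0.05. Pax3 stands lowest with −4.61 in WT and −4.08 in W330R, and Prrx2 lies on opposite sides of 0 in the 2 genotypes.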

How the data were processed

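RNA-seq counts per gene were deposited by the authors as 1 table of whole numbers with 22 columns. The submitters' processing notes name kallisto, DESeq2 1.40 and build GRCm39 without their roles, so the counts may be rounded estimates, and the annotation and strand setting are not given in the sources used here. Libraries were made from total RNA with a NEBNext Ultra II kit. Groups were taken from the labels, 2 libraries for each of 11 conditions. Depth was 8859501 to 47453908 counts per library, median 19355792.

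The counts were fitted with edgeR 4.0.16 (R 4.3.3, limma 3.58.1) by the quasi-likelihood test in 1 model with 1 mean per condition, after filterByExpr (minimum count 10, total 15) and TMM normalization, and p-values were adjusted by Benjamini-Hochberg over 14520 genes. A gene was called at an adjusted p under 0.05. SE is the log2 fold change divided by the root of F. DESeq2 1.42.0, other filters and normalizations, a fit to the compared conditions only, each library left out, and a replicate block were alternatives.

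Same-numbered libraries deviated together in the double mutant and W330R (correlations 0.157 to 0.245) and in the double mutant and WT (0.324 to 0.534). This held on every day. The block was a single term for the replicate number, shared by all conditions, and not a pairing within each day. In W330R and WT the correlation was 0.0298 in undifferentiated cells and 0.168 to 0.258 later. The block fit held all 22 libraries, so every block result also rests on undifferentiated libraries that showed almost no such correlation. The relation between same-numbered libraries comes from the data, not from the labels.

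Exon lengths and overlaps come from GENCODE vM21, promoter windows from RefSeq. Members called between genotypes were given by library (at most 12, by the smallest adjusted p), then the 8 with the highest level per kilobase, and other expressed members by fold change or level. Some members are counted but not reported here by name. Pax3 and Lhx2 were given by library after their values were seen. The members and lists were chosen with earlier results of these data known.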

Additional observations from a re-analysis of the deposited data

Results flagged for a closer look

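Prrx2 and Irx2 were picked out because the difference between W330R and WT on day 6 differed from that in undifferentiated cells in a test of the difference itself. For Prrx2 the change in the log2 difference was 1.886, from 42.4 and 41.5 CPM in W330R against 90.3 and 87.0 CPM in WT before differentiation to 117 and 84.0 CPM against 58.1 and 56.8 CPM on day 6. For Irx2 it was 0.8733, with 41.0 and 42.4 CPM against 45.4 and 43.7 CPM before and 71.9 and 71.2 CPM against 48.8 and 34.7 CPM on day 6. The undifferentiated libraries follow another naming pattern than the later ones, and with each undifferentiated pair summed neither passed the test, so the size of the differences is given as a description.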

How the results depend on the processing

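Of 100 calls of members over the 13 comparisons, 36 were kept in every alternative, 41 in every alternative with all libraries, and none reversed. With only 2 libraries a condition, the calls within single days depend on the spread shared by all 22 libraries. Counts of members called that moved by over 1.5 times were as follows. With DESeq2, 4 were called in W330R-R181E against WT and 2 in undifferentiated cells, beside 2283 and 519 of all genes. Without the filter on low counts these were 2 and 2, beside 1366 and 257 of all genes. Day 6 against day 2 in W330R then gave 2, beside 3208 of all genes. With only the conditions of the comparison, edgeR gave 0 in W330R-R181E against WT (5 at an unadjusted p under 0.05), beside 163 of all genes. In undifferentiated cells it gave 11, beside 4194 of all genes. On days 2, 4 and 6 it gave 0 each (8, 11 and 12 unadjusted), beside 0, 0 and 57 of all genes. Day 6 against day 2 gave 1 in WT and 0 in the double mutant (3 unadjusted), beside 1030 and 80 of all genes. The change of the W330R difference to day 6 gave 7, beside 1247 of all genes. With undifferentiated pairs summed, an alternative chosen after seeing the data, fewer members were called in undifferentiated cells and for the change of the difference. Day 6 against undifferentiated cells also gave fewer in both genotypes. On days 2 to 6 only, also added later, W330R against WT gave 15, beside 4218 of all genes.

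Leaving out 1 library gave 9 to 16 members called in W330R against WT, 9 to 11 in W330R-R181E against W330R and 0 to 5 in W330R-R181E against WT. In W330R against WT it gave 0 in undifferentiated cells, 1 to 3 on day 2, 0 to 5 on day 4 and 0 to 4 on day 6. Day 6 against day 2 gave 2 to 5 in WT, 0 to 3 in W330R and 2 to 5 in the double mutant, day 6 against undifferentiated cells 13 to 19 in WT and 10 to 14 in W330R, and the change of the difference 0 to 1.

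With the replicate number as a replicate block, 14 members were called in W330R-R181E against W330R and 4 in W330R-R181E against WT, beside 21.9% and 16.1% of all genes. On day 4 it gave 9, beside 12.7% of all genes, and for the change of the difference 6, beside 6.98%. In W330R against WT over the stages it gave 16, beside 28.2% of all genes. Irx5 (adjusted p = 0.032), Otx1 (0.034) and Pax9 (0.040) were added there, and Dnmt3a was called lower (0.032). The number of expressed members was 31 at 2 CPM and 40 at 0.5 CPM. Below about 10 counts, as in many libraries of Six3 and Barx2, levels were too low for more than a direction. The highest count was 39 for Six3 and 63 for Barx2.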
